A study of Mus musculus with 15 samples.

Results

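The 6 podocyte genes Nphs1, Podxl, Wt1, Synpo, Cd2ap and Ptpro were followed in whole mouse kidney. They were chosen by name, as the rows whose Ensembl identifier carries one of these symbols in the GRCm38 annotation, and all 6 were found among the 54532 genes of the table. A further 57 genes of podocyte function, grouped in 6 roles, are described after them.

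RNA of 1 kidney each from 15 male C57BL/6 mice, 8 weeks old at the start, was sequenced, with 5 mice per group. Control mice (C) ate standard chow and received the vehicle by gavage. The CKD model mice (M) ate chow with 0.25% adenine for 4 weeks, received the same vehicle and then returned to standard chow. The AA mice ate the same adenine chow for 4 weeks and then standard chow. They were given 30 mg/kg asiatic acid, a plant triterpene, by gavage every day to week 8. The AA mice therefore differ from the C mice in both adenine and asiatic acid. The values are FPKM, the reads on a gene divided by its exon length and by a total set for each library. They are levels per length, so genes can be set beside each other.

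Podocytes are the epithelial cells that wrap the glomerular capillaries with interlocking foot processes. The slit diaphragm between the processes and the basement membrane under them hold back protein, and loss or detachment of podocytes leads to proteinuria and glomerular scarring. Nephrin (Nphs1) is the adhesion protein that bridges the slit, CD2-associated protein (Cd2ap) ties it to actin, podocalyxin (Podxl) is the charged sialomucin of the apical surface, GLEPP1 (Ptpro) is a receptor tyrosine phosphatase of the foot process, synaptopodin (Synpo) bundles and stabilises its actin, and WT1 (Wt1) is the transcription factor that keeps the cell differentiated. Podocytes are a small part of a whole kidney, and in such samples fewer cells and less RNA per cell cannot be told apart.

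Libraries stood apart in depth. Reads recovered from the steps between FPKM values and lying outside the mitochondrial genome numbered 6951352 to 13576620 in C, 2225755 to 4271183 in AA, 2077644 to 2770068 in M mice 1 to 3, and 6488512 and 7142900 in M mice 4 and 5. Genes above 0 numbered 10068 to 12222 in M mice 1 to 3 and 18695 or more in each of the other libraries. Mitochondrial genes held 53.0 to 62.5% of the reads in C, 64.0 to 86.8% in M and 69.2 to 87.2% in AA. As tubular markers, 15 proximal tubule genes summed to 3217 to 13420 FPKM in C, 106 to 565 in M and 197 to 614 in AA. Of the 15, 6 were listed at 0 in at least 1 M library and 1, Slc5a2, in at least 1 AA library. A gene used by every cell, Gapdh, chosen after its values were seen, was listed at 0 in M mouse 1 and AA mice 1 and 2, at up to 0.0967 FPKM in the remaining AA mice, and at 2.63 to 12.9 FPKM in C. A 0 below is therefore given only as listed.

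Nephrin was listed at 0 in 3 of 5 AA kidneys and was lower in AA than in C. Nphs1 (ENSMUSG00000006649) lies at chr7:30458315-30487223 on the plus strand of GRCm38, with 6620 exonic bases. It stood at 0.292, 3.82, 0.671, 1.80 and 2.82 FPKM in C mice 1 to 5, on 62, 1017, 295, 403 and 624 reads. M mice 1 to 5 had 0, 0.246, 0, 0.767 and 5.63 FPKM, and AA mice 1 to 5 had 0.0222, 0, 0.191, 0 and 0 FPKM. Nephrin was thus read in every C library, in 3 of 5 M libraries and in 2 of 5 AA libraries. M mouse 5 was the highest of all 15 libraries, and no AA library reached the lowest C library. The 2 AA libraries with any nephrin held 2 and 19 reads. At the lowest C level, AA mice 2, 4 and 5 would have held 17.4, 39.7 and 31.1 reads, and an FPKM of 0.0502, 0.0220 and 0.0281 is the limit that a count of 0 (3 reads) allows there. Intervals of this kind cover counting error only.

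Groups were compared by limma on log2(FPKM + 1). All genes listed above 0 in 5 or more of the 10 libraries entered, p was adjusted by Benjamini-Hochberg over all of them, and a gene was called where that p did not exceed 0.05 and the difference reached 1 in size. Differences below are on this scale, which understates changes of low genes. Nphs1 fell in AA vs. C by 1.30 (SE 0.32, limma adjusted p = 0.00835), and the 2 groups did not overlap. It passed the filter there with 7 of 10 libraries above 0, all 5 C libraries among them. Against M, AA differed by -0.72 (SE 0.41, limma adjusted p = 0.248) and in M vs. C it was -0.59 (SE 0.54, limma adjusted p = 0.605), with overlapping groups in both. M mouse 5 weighed on the latter, which was -1.07 without that library, while M mice 4 and 5 alone gave 0.42 against C. The fall in AA vs. C was called with each of the 10 libraries left out in turn (-1.55 to -1.07).

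Wt1 went the other way. The gene (ENSMUSG00000016458, chr2:105126529-105173616, plus strand, 6195 exonic bases) stood at 1.93, 1.40, 0.612, 2.73 and 1.44 FPKM in C mice 1 to 5. M mice 1 to 5 held 1.39, 0, 0.0238, 2.44 and 5.17 FPKM, and AA mice 1 to 5 held 6.80, 7.27, 4.59, 5.40 and 3.05 FPKM. All 5 AA libraries lay above all 5 C libraries, on 304 to 689 reads in AA and 252 to 573 reads in C. M was the most scattered group, with M mice 2 and 3 near 0 and M mouse 5 inside the AA range. M mice 2 and 3 are among the 3 libraries with the fewest genes above 0. Wt1 rose by 1.30 in AA vs. C (SE 0.27, limma adjusted p = 0.00406). It rose by 1.498 in AA vs. M (SE 0.48, limma adjusted p = 0.0441), where the groups overlapped through M mouse 5. In M vs. C the difference was -0.20 (SE 0.48, limma adjusted p = 0.848).

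The Wt1 results depended on the libraries and the scale. The call in AA vs. M was lost without M mouse 1, 2 or 3 and without AA mouse 1, 2, 3 or 4 (1.21 to 1.54, limma adjusted p = 0.0590 to 0.109), and with M mice 4 and 5 alone the difference was 0.43 (limma adjusted p = 0.484). The replicate block, with mouse number as a term, ended it as well (limma adjusted p = 0.0656), as did TPM (0.228), quantile normalization (0.0608), limma voom on recovered reads (0.0910) and library quality weights (0.0996). In AA vs. C it was called without any single library (1.14 to 1.46). There the difference was 0.59 when every library was scaled to the same total (TPM, limma adjusted p = 0.195) and 0.91 with limma voom on recovered reads (adjusted p = 0.0677), and the call was lost in both. Those scalings moved the median difference of all genes in AA vs. C from 0.09 to -0.39 and -0.75. Both use totals that include the mitochondrial genes, whose share was higher in AA than in C. Scaled outside the mitochondrial genome, the median of all genes was 0.12 and Wt1 stayed called in AA vs. C. The steps of the deposited FPKM imply a total per library that was 1.41 to 2.30 times the reads on genes in C and 0.518 to 1.48 times in AA. The part of this total in the results was not tested beyond these scalings.

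**Figure D1:**
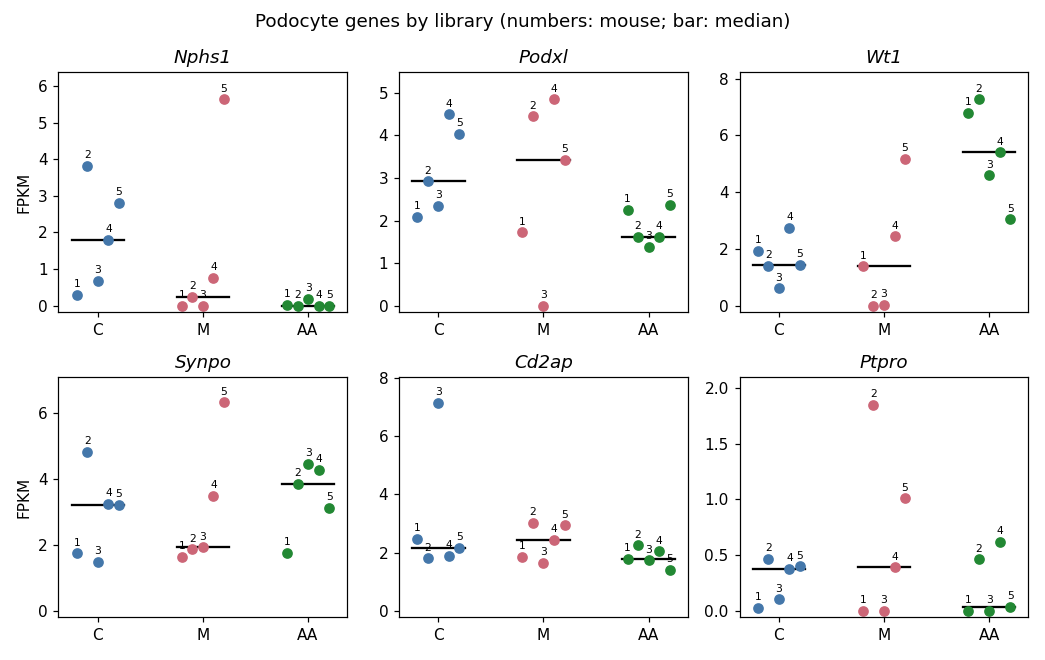
FPKM (y axis) of the 6 podocyte genes in each of 15 kidneys by group (x axis), with the mouse number at each point and the group median as a bar. Nphs1 is at or below 0.191 FPKM in all AA mice, Wt1 is at 3.05 FPKM or more in all AA mice, and C mouse 3 stands alone in Cd2ap at 7.13 FPKM.

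The scaffold and surface genes moved less. Podxl (ENSMUSG00000025608, chr6:31519488-31563981, minus strand) stood at 2.08, 2.92, 2.34, 4.49 and 4.05 FPKM in C mice 1 to 5. It stood at 1.73, 4.45, 0, 4.85 and 3.43 in M, and at 2.25, 1.62, 1.38, 1.61 and 2.36 in AA. AA mice 1 and 5 fell inside the C range and the other 3 below it, and in M only mouse 3 was listed at 0. The difference in AA vs. C was -0.53 (SE 0.22, limma adjusted p = 0.0804) and was not called. With TPM it was -1.46 and with voom on recovered reads -1.70, and both were called (limma adjusted p = 0.00260 and 0.00236). In M vs. C it was -0.31 and in AA vs. M -0.22 (limma adjusted p = 0.746 and 0.771).

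Cd2ap (ENSMUSG00000061665, chr17:42792951-42876665, minus strand, 15864 exonic bases) was even across groups but for C mouse 3. C mice 1 to 5 had 2.48, 1.80, 7.13, 1.88 and 2.15 FPKM, M mice 1.85, 3.02, 1.66, 2.44 and 2.93, and AA mice 1.79, 2.25, 1.73, 2.05 and 1.41. Without C mouse 3 the 14 remaining libraries lay between 1.41 and 3.02 FPKM. The difference in AA vs. C was -0.40 (SE 0.29, limma adjusted p = 0.294), and it was -0.12 without C mouse 3. With TPM and voom it was -1.31 and -1.50 and was called (limma adjusted p = 0.0356 and 0.0145). M vs. C gave -0.16 and AA vs. M -0.23 (limma adjusted p = 0.819 and 0.591).

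Synpo (ENSMUSG00000043079, chromosome 18) was read in all 15 libraries. It had 1.75, 4.83, 1.49, 3.25 and 3.22 FPKM in C mice 1 to 5, 1.64, 1.87, 1.93, 3.48 and 6.33 in M, and 1.77, 3.86, 4.47, 4.28 and 3.13 in AA. The groups overlapped throughout, and M mice 4 and 5 were the highest of their group, as they were for Nphs1 and Wt1. Differences were 0.01 in M vs. C, 0.23 in AA vs. M and 0.23 in AA vs. C (limma adjusted p = 0.994, 0.698 and 0.534). The sign in AA vs. C turned with TPM (-0.63) and voom (-0.63).

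Ptpro (ENSMUSG00000030223, chr6:137252319-137463233, plus strand) was the lowest of the 6 in C. Its values were 0.0278, 0.470, 0.103, 0.378 and 0.400 FPKM in C mice 1 to 5, 0, 1.85, 0, 0.391 and 1.01 in M, and 0, 0.462, 0, 0.622 and 0.0369 in AA. Each group held libraries near 0 and libraries above 0.39 FPKM. No difference was called, with 0.26 in M vs. C, -0.34 in AA vs. M and -0.08 in AA vs. C (limma adjusted p = 0.653, 0.441 and 0.731).

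Of the 6 genes, 0 were called in M vs. C, where 291 of 21153 genes (1.38%) were called. None of the 6 had an unadjusted limma p below 0.05 there, beside 3493 of the 21153 genes. None was called with voom on recovered reads, beside 1869 of 21144 genes. Between AA and M, 1 of 6 was called, Wt1, against 12.8% of all 19798 genes tested, 11.7% higher and 1.07% lower. In AA vs. C, 1 of 6 rose and 1 fell, against 19.8% of 21898 genes, 10.2% higher and 9.61% lower. The 2 called genes were also the 2 of 6 whose AA and C libraries did not overlap, which held for 24.0% of all genes. None of the 6 was free of overlap in M vs. C (4.72% of all genes) or AA vs. M (13.2%). The median difference of the 6 was -0.18, -0.23 and -0.24 in the 3 comparisons, beside -0.12, 0.17 and 0.09 over all genes tested. The comparisons share libraries, so they are not independent of each other.

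**Figure D2:**
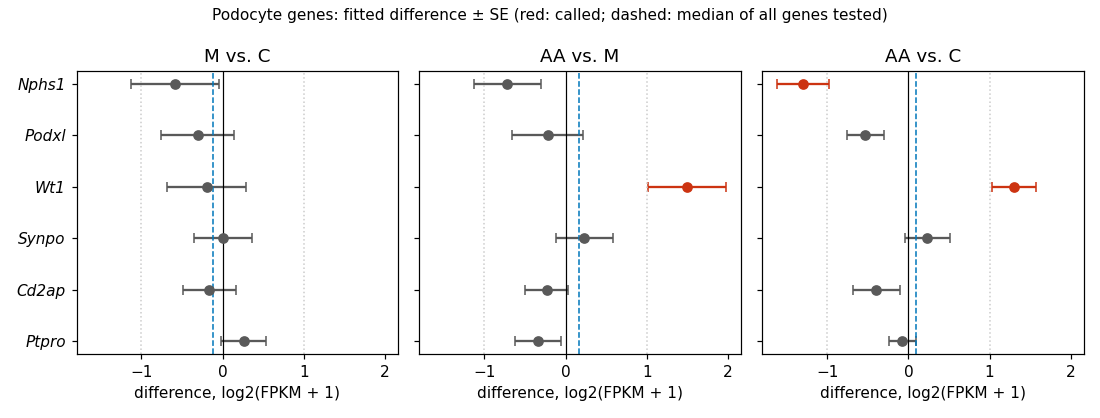
Fitted difference on the log2(FPKM + 1) scale (x axis) with its SE for the 6 podocyte genes (y axis) for the 3 comparisons between groups. Called genes are red, dotted lines mark a difference of 1 and the dashed line the median of all genes tested. Nphs1 at -1.30 and Wt1 at 1.30 stand on opposite sides in AA vs. C.

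The order of the 6 levels changed between groups. By median FPKM it ran Synpo (3.22), Podxl (2.92), Cd2ap (2.15), Nphs1 (1.80), Wt1 (1.44) and Ptpro (0.378) in C. The ranges of neighbours in that order overlapped, except for Wt1 and Ptpro. By the AA medians it ran Wt1 (5.40), Synpo (3.86), Cd2ap (1.79), Podxl (1.62), Ptpro (0.0369) and Nphs1 (0), where the ranges of Podxl and Ptpro alone did not overlap as neighbours. In M, from Podxl (3.43) through Cd2ap (2.44), Synpo (1.93), Wt1 (1.39) and Ptpro (0.391) to Nphs1 (0.246), all neighbouring ranges overlapped. Wt1 stood above Nphs1 in the same library in 2 of 5 C mice, 3 of 5 M mice and 5 of 5 AA mice, an order within a library that no scaling between libraries can change. The summed level of the 6 was 8.57 to 15.2 FPKM in C, 3.61 to 24.5 in M and 9.995 to 15.5 in AA. On the deposited scale the AA sums thus lay close to the C sums, while Nphs1 fell and Wt1 rose within them. All genes together, mitochondrial genes included, summed to 263859 to 463739 FPKM in C and 460489 to 1481916 in AA. AA mice 4 and 2, with the lowest and highest of these AA totals, also had the lowest and highest mitochondrial share in AA (69.2 and 87.2%). The sums of the 6 genes were not formed on another scale, and the Wt1 rise was not called with TPM or voom.

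Kirrel2 is the gene next to Nphs1 and encodes another nephrin-like adhesion protein of the slit diaphragm (Neph3). The gene (ENSMUSG00000036915, chr7:30447534-30457690, minus strand) faces away from Nphs1, with 624 bases between the annotated gene bodies and 2542 bases between the starts RefSeq gives. Kirrel2 had 0.458, 0.0758, 0.222, 0.353 and 0.159 FPKM in C mice 1 to 5, 0, 0.729, 0, 0.294 and 0.691 in M, and 1.72, 4.33, 1.27, 1.91 and 1.14 in AA. Every AA library lay above every C and M library. It rose by 1.22 in AA vs. C (SE 0.25, limma adjusted p = 0.00366) and by 1.15 in AA vs. M (SE 0.32, limma adjusted p = 0.0239). The call in AA vs. C was lost with TPM and without AA mouse 2. That in AA vs. M was lost with TPM, voom, quantile normalization, a pseudocount of 0.01, M mice 4 and 5 alone, and without M mouse 1, M mouse 3 or AA mouse 2. Nphs1 stood near or at 0 in the same AA libraries in which its neighbour was highest, and Kirrel2 was above Nphs1 in 5 of 5 AA mice but in 1 of 5 C and 1 of 5 M mice.

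The start regions of both neighbours are shown because the genes lie back to back and differ in direction. They are RefSeq sequences of GRCm38.p6, 300 bases each in the gene's own direction, of Nphs1 at chr7:30459808-30460107 on the plus strand and of Kirrel2 at chr7:30457466-30457765 on the minus strand. Capitals mark matches, on either strand, to GNGTGGG (letters that WT1 and EGR zinc fingers bind), GGGCGG (the GC box of SP1), TAATTA (a homeodomain core) and CAGCTG (an E-box).
Nphs1: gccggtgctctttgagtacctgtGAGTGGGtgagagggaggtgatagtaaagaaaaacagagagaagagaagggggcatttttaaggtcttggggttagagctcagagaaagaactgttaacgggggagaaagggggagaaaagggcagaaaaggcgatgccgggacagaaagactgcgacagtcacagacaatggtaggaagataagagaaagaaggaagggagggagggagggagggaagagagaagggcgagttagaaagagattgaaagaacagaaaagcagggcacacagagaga
Kirrel2: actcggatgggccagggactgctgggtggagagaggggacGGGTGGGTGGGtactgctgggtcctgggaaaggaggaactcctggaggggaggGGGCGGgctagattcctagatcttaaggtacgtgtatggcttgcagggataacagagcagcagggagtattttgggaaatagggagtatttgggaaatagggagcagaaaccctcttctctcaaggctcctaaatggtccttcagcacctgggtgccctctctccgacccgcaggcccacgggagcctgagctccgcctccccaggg
The Nphs1 window held 1 match to GNGTGGG and none to the other letters. The Kirrel2 window held 2 matches to GNGTGGG, which overlap, and 1 to GGGCGG. Among 32851 promoter windows of the same length, 30.8% held GNGTGGG, 35.7% GGGCGG, 5.29% TAATTA and 16.3% CAGCTG. GC content was 49.7% in the Nphs1 window and 59.7% in the Kirrel2 window. A match is a description of the letters and not a binding site. Of the 6 podocyte genes, 3 were matched to a RefSeq window (Nphs1, Cd2ap and Ptpro), and Podxl, Wt1 and Synpo were not.

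Exonic bases of Nphs1 are shared with 2 further annotated genes, and reads cannot be told apart there because the counting is not stated to use strand. The antisense gene Nphs1os shares 597 bases (9.02% of the Nphs1 exons) and was listed at 0 in all 15 libraries. The pseudogene Rps12-ps4 shares 183 bases (2.76%) and had 1.64 to 3.87 FPKM in C, 0.241 to 8.35 in M and 1.68 to 6.70 in AA. Wt1os lies 18 bases from Wt1 on the other strand. It had 0.0216 to 0.918 FPKM in C, was listed at 0 in M mice 1 to 3, stood at 0.245 and 1.67 FPKM in M mice 4 and 5, and was listed at 0 in all 5 AA mice.

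**Figure D3:**
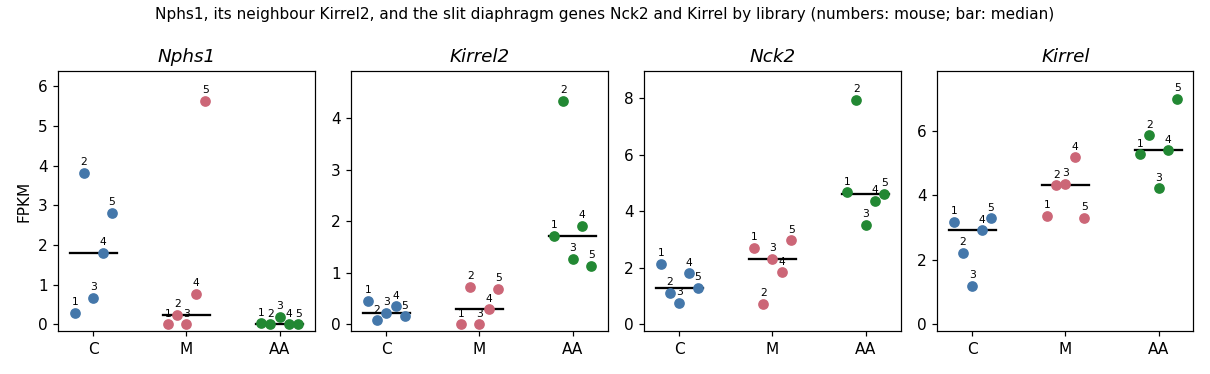
FPKM (y axis) of Nphs1, of its neighbour Kirrel2, and of Nck2 and Kirrel in each kidney by group (x axis), with mouse numbers and group medians as bars. Kirrel2, Nck2 and Kirrel are above all C mice in every AA mouse, and Nphs1 is below them.

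Of the other 57 genes of the podocyte list, 55 or 56 were tested in each comparison. They were listed for a function in podocytes. The share of each level that came from other kidney cells was not tested. In M vs. C, 0 were called by limma, and 13 had an unadjusted limma p below 0.05, beside 3493 of all 21153 genes. With voom on recovered reads 5 were called, all lower: Bmp7, Col4a3, Col4a4, Ezr and Lama5. Over all genes limma called 1.38% there, and voom called 1869 of 21144, 35 of them higher. Between AA and M, 2 rose and 0 fell, beside 11.7% and 1.07% of all genes. That direction turned to 1 higher and 5 lower with quantile normalization and with quality weights, and to 0 higher and 9 lower with M mice 4 and 5 alone. Of all genes called there, 1584 of 2279 were higher with quantile normalization, 1654 of 2453 with quality weights and 460 of 1656 with M mice 4 and 5. In AA vs. C, 6 rose and 6 fell, beside 10.2% and 9.61% of all genes, and 17 did not overlap, beside 24.0%. The same shares of all genes are the background for the counts by role and by marker list. The median difference of the list was -0.07 in M vs. C, 0.16 in AA vs. M and -0.07 in AA vs. C. The split of AA vs. C depended on scale, with 0 higher and 20 lower under TPM and 1 higher (Kirrel2) and 22 lower with voom. The totals of both scalings include the mitochondrial genes. Over all genes TPM called 6785 of 21898 there, 862 of them higher. Voom called 8590 of 21888, 1603 of them higher. The 6 genes of the list that fell on the deposited scale were also called under both scalings, and the other 5 that rose were called under neither.

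Among 12 slit diaphragm genes, 2 rose in AA vs. C, Kirrel2 and Nck2. Nck2, an adaptor that binds phosphorylated nephrin and recruits actin regulators, had 0.757 to 2.13 FPKM in C, 0.730 to 2.97 in M and 3.52 to 7.94 in AA, and rose by 1.30 in AA vs. C (SE 0.24, limma adjusted p = 0.00221). Against M it missed the threshold at 0.97 (limma adjusted p = 0.0518), although the groups did not overlap. Kirrel, the Neph1 partner of nephrin, had 1.19 to 3.29 FPKM in C, 3.29 to 5.17 in M and 4.21 to 6.98 in AA, with a difference of 0.91 in AA vs. C (limma adjusted p = 0.0109), just under the size needed for a call. Tjp1 (ZO-1), which sits under the slit, had 2.05 to 4.37, 2.38 to 3.73 and 1.32 to 4.38 FPKM in C, M and AA and a difference of -0.06 in AA vs. C.

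Of 8 transcription factors, 2 rose in AA vs. C and 1 in AA vs. M, and 0 fell, with 5 of 8 differences above 0 in each of these comparisons. Over all genes 12337 of 21898 differences lay above 0 in AA vs. C and 12340 of 19798 in AA vs. M. Tcf21, which is needed for podocyte and stromal differentiation, had 3.41 to 10.9 FPKM in C, 7.99 to 37.5 in M and 13.0 to 30.4 in AA, and rose by 1.57 in AA vs. C (SE 0.30, limma adjusted p = 0.00249). Foxc1 had 0.881 to 3.87 FPKM in C, 0 to 2.84 in M and 3.26 to 6.35 in AA. It rose by 1.45 in AA vs. M (SE 0.39, limma adjusted p = 0.02004) and stood at 0.93 in AA vs. C, under the size needed for a call. The call in AA vs. M was lost with TPM, voom, quality weights, a pseudocount of 0.01, M mice 4 and 5 alone, and without M mouse 3.

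Of 11 basement membrane genes, 10 were tested. Of these, 2 fell in AA vs. C and 8 of 10 differences lay below 0, beside 9561 of 21898 over all genes. In AA vs. M none was called and 7 of 10 lay above 0 (median 0.36), beside 12340 of 19798 over all genes. In M vs. C none was called and 9 of 10 lay below 0 (median -1.13), beside 14358 of 21153 over all genes. There 5 of the 10 had an unadjusted limma p below 0.05, beside 3493 of 21153. The gene not tested, Ilk, was at 0 in 13 of 15 libraries. Lama5, the laminin chain of the mature glomerular basement membrane, had 14.6 to 32.1 FPKM in C and 0.798 to 2.37 in AA, and fell by 3.13 (SE 0.27, limma adjusted p = 0.000103). In M it was split, with 0.666, 2.28 and 1.93 FPKM in mice 1 to 3, against 17.5 and 27.3 for mice 4 and 5. The libraries of M mice 1 to 3 held the fewest genes above 0. Agrn, the heparan sulfate proteoglycan agrin, had 6.33 to 23.9 FPKM in C and 2.85 to 4.76 in AA and fell by 1.77 (SE 0.30, limma adjusted p = 0.00147). Its M libraries were split alike, at 1.46 to 2.57 FPKM and, for mice 4 and 5, at 18.2 and 25.01. Itgb1, the integrin chain that anchors the foot process, had 21.6 to 45.0 FPKM in C and 37.1 to 68.2 in AA (0.69, limma adjusted p = 0.0639), and Lamb2, the laminin partner of Lama5, had 8.62 to 15.4 and 5.00 to 18.2 FPKM (-0.36, limma adjusted p = 0.403). Both laminin chains are also made outside the glomerulus.

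Of 11 actin genes, 1 fell in AA vs. C and 0 rose. Rhpn1, the rhophilin gene of podocytes, had 3.52 to 18.3 FPKM in C and at most 0.215 in AA, with AA mice 2 and 3 listed at 0, and fell by 3.14 (SE 0.37, limma adjusted p = 0.000235). Rhpn1 passed the filter with all 5 C but 3 AA libraries above 0. Its M libraries ran from 0 to 25.03 FPKM. Actn4, the actinin of the foot process, had 8.06 to 11.7 FPKM in C and 5.26 to 7.46 in AA without overlap, a difference of -0.53 (limma adjusted p = 0.0442) below the size needed for a call. Arhgdia, an inhibitor of small GTPases of the actin skeleton, overlapped in all groups (0.20 in AA vs. C, limma adjusted p = 0.538). Of 8 apical and foot process membrane genes, 1 fell, the NHERF2 gene Slc9a3r2, which links podocalyxin to ezrin. It had 10.1 to 17.4 FPKM in C, 3.31 to 13.3 in M and 2.55 to 6.82 in AA and fell by 1.31 (SE 0.26, limma adjusted p = 0.00330). Ezr itself had 17.5 to 37.9 FPKM in C and 11.8 to 26.3 in AA (-0.32, limma adjusted p = 0.397).

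Of 7 secreted and other genes, 2 rose and 2 fell in AA vs. C. Vegfa, the growth factor by which podocytes and tubules sustain capillaries, had 5.99 to 42.3 FPKM in C, 1.29 to 16.2 in M and 0.857 to 2.32 in AA, and fell by 2.43 (SE 0.42, limma adjusted p = 0.00156). Sema3g, a semaphorin, had 0.857 to 5.32 FPKM in C and 0 to 0.739 in AA and fell by 1.40 (limma adjusted p = 0.00765), and like Rhpn1 it passed the filter with 3 AA libraries above 0. Htra1, a serine protease, had 5.68 to 9.40 FPKM in C and 13.9 to 27.2 in AA and rose by 1.15 (limma adjusted p = 0.00296). Dpysl2, a mediator of semaphorin signals, had 0.308 to 2.03 FPKM in C and 2.53 to 5.91 in AA and rose by 1.19 (limma adjusted p = 0.00623).

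**Figure D4:**
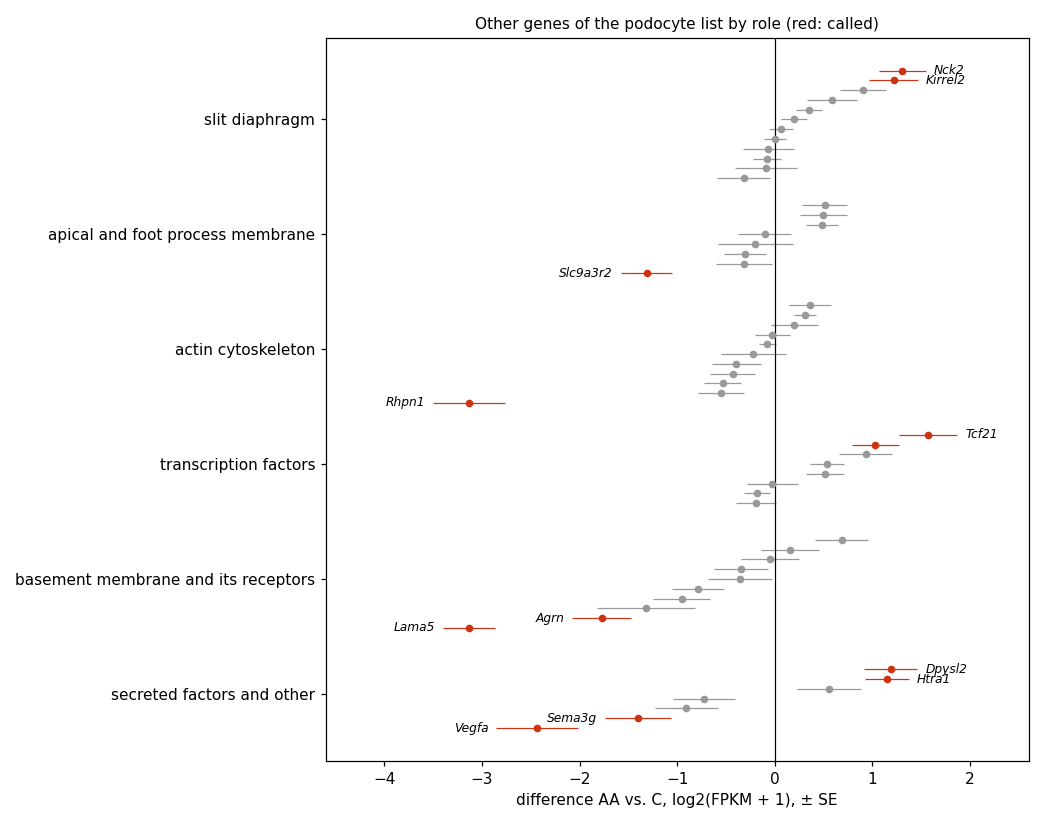
Fitted difference in AA vs. C on the log2(FPKM + 1) scale (x axis) with its SE for the tested genes of the podocyte list, grouped by role (y axis), with called genes in red and 11 of the 12 named. The 6 called higher lie among slit diaphragm, transcription factor and secreted genes, and Lama5 and Rhpn1 lie lowest at -3.13 and -3.14.

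Markers of other kidney cells moved in the same samples, and their part in the podocyte results was not tested. Of 8 mesangial and mural genes, 2 rose in AA vs. C, with 4 differences above and 4 below 0 (median -0.14), 1 rose in AA vs. M, and 0 were called in M vs. C. Their summed level was 33.5 to 66.0 FPKM in C, 15.4 to 72.6 in M and 61.6 to 103 in AA. Pdgfrb rose by 1.15 in AA vs. C (limma adjusted p = 0.0133), and Itga8 rose by 1.57 in AA vs. M (limma adjusted p = 0.0235). Of 5 genes listed for the parietal epithelium, the cells of the Bowman capsule that can also use Wt1, 2 rose and 1 fell in AA vs. C. In the other comparisons 0 were called. Their sums were 17.2 to 29.3 FPKM in C, 7.52 to 28.8 in M and 14.9 to 24.5 in AA. Whether these genes were read from the capsule or from other cells was not tested. Cldn1 rose by 1.53 (limma adjusted p = 0.00286) and Pax8 fell by 2.01 (limma adjusted p = 0.000543). Of 9 endothelial genes, 1 fell in AA vs. C and 0 were called in the other comparisons, with sums of 33.4 to 103 FPKM in C, 26.1 to 51.7 in M and 23.9 to 62.7 in AA. Pecam1 (-0.57) and Kdr (-0.33) were not called. Of 15 proximal tubule genes, 9 fell in M vs. C, 10 fell in AA vs. C and 2 rose in AA vs. M. Lrp2 fell by 2.08 in M vs. C (limma adjusted p = 0.0440), and Cubn was not called (-1.27, limma adjusted p = 0.115). Of 10 leukocyte genes, 1 rose in M vs. C, 1 rose in AA vs. M, and 2 rose and 1 fell in AA vs. C, at sums of 24.1 to 230.0 FPKM in C, 178 to 408 in M and 127 to 223 in AA. Lyz2 rose by 4.32 in M vs. C (limma adjusted p = 0.0190) and Ptprc was not called (0.30). In M the marker list genes Kdr, Tek, Gata3, Cspg4, Ren1, Pax8 and Pax2 were each listed at 0 in at least 1 library. So were 6 of the 15 proximal tubule genes, Lrp2 among them, and 3 of the 10 leukocyte genes.

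The base composition of a transcript also moved with the AA vs. C difference. Over all genes the median difference was 0.27 in the lowest of 5 equal bins of transcript GC content (up to 42.9%) and -0.28 in the highest bin (54.6% and above), and the latter held 999 genes called lower and 260 called higher. Nphs1, at 56.4%, and Synpo, at 58.2%, lie in that highest bin. Wt1 (53.7%) and Podxl (52.0%) lie in the next bin below, Ptpro (50.2%) in the middle bin and Cd2ap (38.4%) in the lowest. The part of GC content in the results was not tested.

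**Figure D5:**
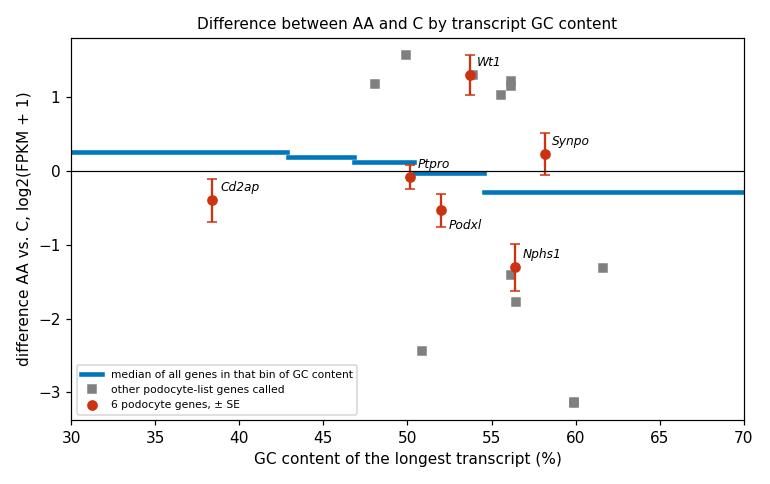
Fitted difference in AA vs. C on the log2(FPKM + 1) scale (y axis) against the GC content of the longest transcript (x axis) for the 6 podocyte genes with SE (red), the called genes of the podocyte list (grey squares), and the median of all genes in each of 5 bins of GC content (blue). The bin medians run from 0.27 to -0.28, and Nphs1 lies at -1.30 and Wt1 at 1.30.

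The genes whose values followed nephrin from mouse to mouse were named by Pearson correlation of deviations from the group mean of log2(FPKM + 1) over 15 libraries, among 17953 other genes above 0 in at least 10 of them. The highest were C130021I20Rik, an antisense RNA (r = 0.970, Spearman rho 0.907), Ddn, the dendrin of the slit diaphragm and of synapses (r = 0.950, rho 0.907), Slc12a3, the thiazide-sensitive cotransporter of the distal tubule (r = 0.950, rho 0.922), the glucuronosyltransferase Ugt2b5 (r = 0.948, rho 0.883) and Gm15832 (r = 0.942, rho 0.820). Without the libraries farthest from the median, M mouse 5 and C mouse 2, r was 0.838 to 0.905. All 5 genes were listed at 0 in M mice 1 to 3, and in each of them C mouse 2 or 5 led its group and M mouse 5 led the M mice. Of the other podocyte genes, Synpo followed nephrin at r = 0.864 (0.724 without the 2 libraries). Wt1 reached 0.605, but 0.367 without the 2 libraries. Ptpro gave 0.449, Podxl 0.439 and Cd2ap -0.100. These points share a library's depth and scaling, and the values are descriptions.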

How the data were processed

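Poly-A RNA of 15 kidneys (5 per group) was sequenced in paired ends. The authors trimmed reads with fastp, aligned them to mm10 with HISAT2 2.0.5, counted them with featureCounts 1.5.0-p3 and deposited 1 FPKM value per gene and library. The annotation release is not given in the sources used here. Groups and mouse numbers come from the labels. Symbols, positions and exon lengths were taken from GENCODE M21 (GRCm38), which lacked 37 identifiers.

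Reads were recovered from the smallest step of FPKM times length (97.6 to 98.9% of low values were whole within 0.02 of a step), and 64.2 to 74.5% of these values were even, so a step may be a read or a fragment. Fits were made in R 4.3.3 by limma 3.58.1, with lmFit and a trended eBayes, on log2(FPKM + 1) with no block, as described with the results. The spread is that between mice. On simulated data the fit was tested with known changes. Alternatives were TPM, quantile normalization, centring on library medians, scaling outside the mitochondrial genome, pseudocounts of 0.1 and 0.01, no filter, a mean FPKM of at least 1, voom on recovered reads, library quality weights, all 15 libraries in one fit, a replicate block, each library left out, and M mice 4 and 5 alone. The totals used for TPM and for voom include the mitochondrial genes. Tables used Python 3.11.15, pandas 2.3.3 and matplotlib 3.10.9.

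The 6 genes, the lists and the alternatives were chosen with earlier results of these data known. Named were the 6 genes, the called list genes (at most the 12 with the largest difference), the 2 highest list genes per role, the first 2 of each marker list (endothelium, mesangium and mural cells, parietal epithelium, proximal tubule, leukocytes) and the 5 genes most like Nphs1. The mean of 5 mice is not given for genes listed at 0. Some genes of the list enter its counts and are not reported by name here. The metabolite and microbiota data were not analysed here.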

Additional observations from a re-analysis of the deposited data

Results flagged for a closer look

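A library was singled out where its gap to the next library exceeded the critical share of its group's range (Dixon's ratio, 5 libraries). Of 90 groups of 5 libraries tested among the named podocyte genes and the genes most like Nphs1, 15 held such a library. The critical share is set for about 1 in 20 among independent normal values, which these are not. The genes most like Nphs1 were also picked for following it, and M mouse 5 was its farthest library. Their flags in M mouse 5 follow from that choice, so the 15 is a description only.

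Among the 6 podocyte genes it was Cd2ap in C mouse 3 (ratio 0.872, 7.13 FPKM), Nphs1 in M mouse 5 (0.864, 5.63 FPKM) and Nphs1 in AA mouse 3 (0.884, 0.191 FPKM). M mouse 5 stood apart also in Rhpn1 (0.740), C130021I20Rik (0.808), Ddn (0.808), Slc12a3 (0.738) and Ugt2b5 (0.825). AA mouse 2 did so in Kirrel2 (0.757), Nck2 (0.740) and Slc12a3 (0.730), and AA mouse 3 in Ugt2b5 (0.838). Single cases were Agrn in AA mouse 5 (0.750), Vegfa in C mouse 2 (0.729) and Ezr in C mouse 4 (0.786). AA mouse 2 had the highest mitochondrial share of all 15 libraries (87.2%).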

How the results depend on the processing

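Of the 6 podocyte genes, 0 were called in M vs. C under every alternative. Some alternatives called few genes of any kind there. M mice 4 and 5 alone gave 0 of 20868, no C mouse 5 gave 4 of 20020 and no filter gave 33 of 31692. A count of 0 among the 6 carries no information in such settings. In AA vs. C the 2 calls became 1 with a mean FPKM of at least 1, which left Nphs1 and Ptpro untested. With TPM and with voom 3 were called there, Nphs1, Podxl and Cd2ap, and Wt1 was not. Over all genes 6785 of 21898 were called with TPM and 8590 of 21888 with voom, beside 4346 of 21898 in the main fit. In AA vs. M the 1 call became 0 with TPM, quantile normalization, both other pseudocounts, no filter, voom, quality weights and M mice 4 and 5 alone, and 0 to 1 with a library left out. The replicate block left 0 calls there. Same-numbered mice deviated together by correlations of -0.131 to 0.217, and 2 of 10, 2 of 10 and 3 of 10 libraries followed their own number best in the 3 comparisons. The numbers were not taken to pair the mice, and the block changed the side of the threshold of no other result given here for the 6 genes or the list.

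Of the other 57 genes, calls in M vs. C moved from 0 to 3 (TPM), 5 (voom) and 2 (all libraries in one fit), and 0 to 3 with a library left out, 3 without M mouse 5. Over all genes these settings called 1609 (TPM), 1869 (voom), 786 (one fit) and 954 (without M mouse 5), beside 291. In AA vs. M, 2 became 0 (TPM, pseudocount 0.01 and voom), 6, 1 higher and 5 lower (quantile and, likewise, quality weights), 4 (centring) and 9, all lower (M mice 4 and 5 alone), with 0 to 4 when a library was left out (0 without M mouse 3, 4 without M mouse 5, 1 without AA mouse 2). In AA vs. C, 12 became 20 (TPM) and 23 (voom), where the calls over all genes also rose, as given above.

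Signs that turned in M vs. C, without any call, were Nphs1 (0.42), Podxl (0.32) and Wt1 (0.87) with M mice 4 and 5 alone, Wt1 (0.092) and Cd2ap (0.022) with quantile normalization, Wt1 (0.20) with quality weights, Synpo with TPM (-0.75), voom (-0.83) and pseudocounts of 0.1 (-0.0018) and 0.01 (-0.0028), and Ptpro with a pseudocount of 0.01 (-0.42) and voom (-1.56). With a library left out the ranges were -0.52 to 0.12 for Podxl, -0.57 to 0.086 for Wt1, -0.24 to 0.17 for Synpo and -0.27 to 0.12 for Cd2ap. In AA vs. M they were Podxl with pseudocounts of 0.1 (0.16) and 0.01 (0.79) and voom (0.93), and Synpo with quantile normalization (-0.042) and M mice 4 and 5 alone (-0.39). In AA vs. C they were Synpo with TPM (-0.63) and voom (-0.63) and Ptpro with centring (0.033). The cause was not tested. Nphs1 could not be tested in AA vs. M with M mice 4 and 5 alone or without M mouse 2, 4 or 5 or AA mouse 1 or 3, since fewer than 5 libraries were above 0. All genes' median difference moved from -0.12 to -0.58 (TPM) and -1.63 (voom) in M vs. C. In the 3 AA libraries without a nephrin read, a count of 0 allows 0.0220 to 0.0502 FPKM.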
